A study of Mus musculus with 6 samples.

Results

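Per1, Per2, Per3, Cry1, Cry2 and Ciart, the genes of the Period, Cryptochrome and CIART repressors of the circadian clock, were followed in mouse pancreatic islets around the day. They were chosen by name, through the RefSeq transcript assigned to each probe. Each of the 6 genes had 1 probe, out of 32451 genes or transcripts with a probe on the array, so there was no second probe to compare. All 6 were among the 24127 genes tested, which had to be well above background on at least 3 of 6 arrays. Per1, Cry1, Cry2 and Ciart were well above background on all 6 arrays, Per2 on 5 and Per3 on 3.

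Islets, the hormone-secreting cell clusters of the pancreas, came from male C57BL6 mice aged 8 weeks, fed rodent chow and kept with lights on for 12 h and off for 12 h. They were isolated with collagenase at zeitgeber times (ZT) 0, 4, 8, 12, 16 and 20, where ZT0 is lights on and ZT12 lights off. The 6 groups differed in time only, with no genetic change and no treatment in any group. Each time point was 1 Cy3-labelled Agilent array, and each array held the RNA of 3 to 5 mice together. No time point had a replicate, so the spread between mice was not measured and p-values reflect only how far these pools depart from a smooth course.

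In the mammalian clock, BMAL1 (gene Arntl) and CLOCK bind E-box sequences and switch on the Per and Cry genes. PER and CRY proteins then form a complex that enters the nucleus and blocks BMAL1 and CLOCK, which closes the loop. CRY1 and CRY2 carry most of the repression, PER2 holds the complex together, and PER3 has a minor part. CIART, also called CHRONO, is a separate repressor that binds BMAL1, and its gene is likewise an E-box target. The pancreatic islet has a clock of its own, which is known to affect insulin secretion.

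The upstream sequences of these genes are shown because clock factors are known to bind short motifs of the kind they hold. RefSeq promoters of build GRCm38.p6 matched 5 of the 6 genes: Per1 (with 2 starts), Per3, Cry1, Cry2 and Ciart. They were searched on both strands for the E-box CACGTG, its variant CACGTT, the D-box TTATGTAA or TTACGTAA, the AGGTCA site of ROR and REV-ERB, and the cAMP element TGACGTCA. No matches overlapped each other. Capitals mark the matches, each stretch reads 5′ to 3′ on the strand of its gene, and all lie upstream of the start.
Ciart, chr3:95882252-95882359, minus strand: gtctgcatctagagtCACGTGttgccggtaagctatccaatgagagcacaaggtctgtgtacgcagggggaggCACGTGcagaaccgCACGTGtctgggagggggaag
Cry1, chr10:85185094-85185148, minus strand: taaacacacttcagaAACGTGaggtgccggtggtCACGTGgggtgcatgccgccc
Per1, chr11:69098768-69098832, plus strand: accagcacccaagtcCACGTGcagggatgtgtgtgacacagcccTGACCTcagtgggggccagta
Per3, chr4:151044801-151044885, minus strand: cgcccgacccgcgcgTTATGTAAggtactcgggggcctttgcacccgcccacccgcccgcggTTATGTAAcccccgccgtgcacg
Cry2, chr2:92434215-92434250, minus strand: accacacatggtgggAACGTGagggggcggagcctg

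The Ciart promoter held 3 copies of CACGTG, and 3 or more copies occurred in 0.0883% of the 32851 promoters of the same length. Cry1 had 1 CACGTG, found in 7.15% of promoters, and 1 AACGTG, the reverse of CACGTT, which occurred in 4.68% in either direction. Per1 had 1 CACGTG and 1 TGACCT, the reverse of AGGTCA (16.3%), at the upstream start, and no match at its other start. Per3 had no E-box match in this window but 2 copies of TTATGTAA, against 0.0213% of promoters with 2 or more. The only match in Cry2 was 1 AACGTG. The cAMP element, present in 1.79% of promoters, and TTACGTAA, in 0.119%, were in none of them. A match describes the letters alone, and no binding was measured here.

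Levels below are log2 of the processed signal of the scanner files minus the 75th percentile of the array. The ZT8, ZT12, ZT16 and ZT20 arrays were read in 1 scan, ZT4 in another on the same date and ZT0 on a later date. The share of spots well above background ran from 66.1% (ZT4) to 84.4% (ZT0), and 0 spots were saturated. ZT0 had 1743 outlier spots, against 166 to 247 on the other arrays. The 75th percentile of the processed signal was 506 at ZT4, against 1229 to 2090 on the others. Spots of the same probe on the same array had a median SD of 0.04 to 0.11 log2 units, and the error model of the scanner software gave about 10% of the signal for each bright spot. Both errors describe a spot, not the mice in a pool, and the number of arrays limits the precision.

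The labelled tissue was checked with 18 endocrine islet markers. Of these, 17 were tested (without Mafa), and 15 were well above background on all 6 arrays. Their summed level, in units of the 75th percentile of the array, ran from 511 at ZT12 to 1730 at ZT0. The 12 lymphocyte markers were all well above background on every array, with a summed level from 16.1 at ZT20 to 385 at ZT4. Acinar (exocrine pancreas) markers, 8 of 9 tested, summed to 327 at ZT12 and to 1428 at ZT4, where the endocrine sum was 1289. Intestinal epithelium markers, 4 of 5 tested, summed to 264 at ZT4 and to at most 16.8 on the other arrays. In such bulk samples, fewer cells of a type and less RNA per cell cannot be told apart.

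Cry1 was the repressor with the simplest course: it was low around lights on and high in the dark phase. Its level was -4.08 (ZT0), -3.97 (ZT4), -3.46 (ZT8), -2.66 (ZT12), -2.24 (ZT16) and -2.06 (ZT20). Each array was thus higher than the one before it, an order shared by 0.68% of all genes tested. Of the neighbouring levels, only ZT4 and ZT8, and ZT8 and ZT12, differed by more than 2 scanner errors. ZT0 and ZT4 did not, nor did ZT12 and ZT16, nor ZT16 and ZT20.

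Between its extremes, ZT20 and ZT0, the level of Cry1 differed 4.04-fold, or 4.16-fold with quantile normalization. Within the shared scan it was 2.63-fold higher at ZT20 than at ZT8. An increase of at least 2-fold between those arrays was found in 8.6% of all genes, and Cry1 was the only member with one. With normexp background correction of the median spot signal, ZT4 (-2.50) lay above ZT8 (-2.99), so the order of the light-phase arrays depended on how dim spots were corrected, while ZT0 stayed lowest and ZT20 highest. Hepatocyte genes were also highest at ZT20, with a summed level of 281 for the 5 of 7 that were tested, against 1.46 at ZT16 and at most 26.8 on the other arrays. Their part in the course of Cry1 was not tested.

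**Figure D1:**
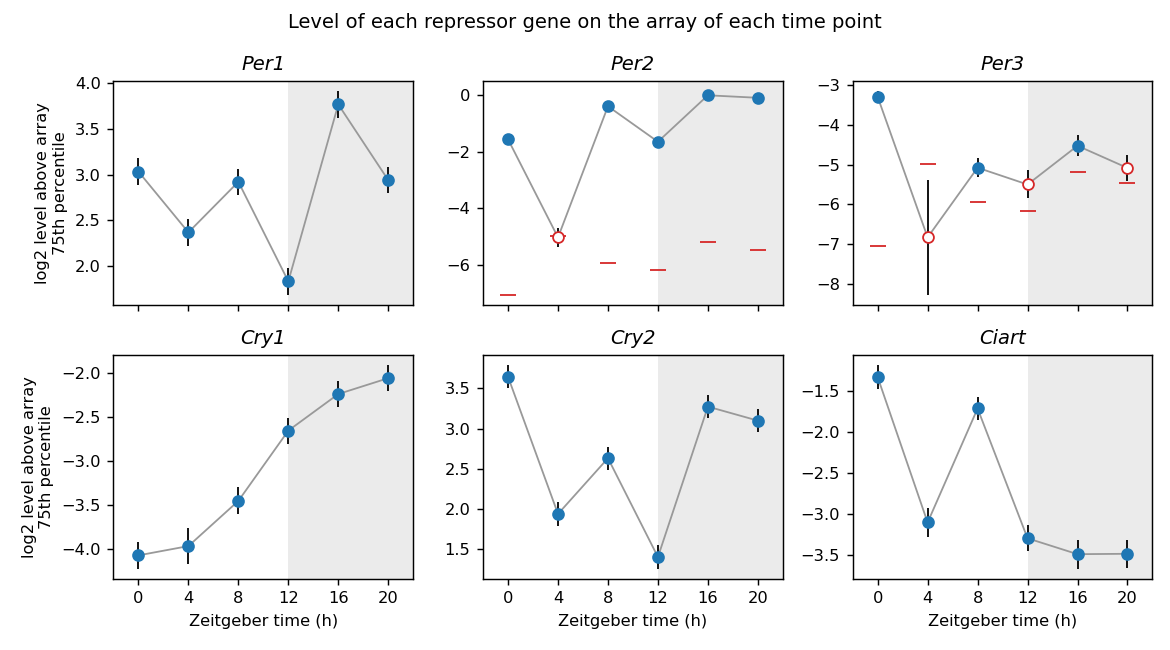
Level of each gene (log2 above the 75th percentile of its array, y axis; scales differ between panels) against zeitgeber time in hours, 1 array per point, with the error model of the scanner software as bars and the dark phase shaded. Filled points were well above background and open points were not; short red dashes mark the lowest level of any detected probe on that array, for genes with an open point. Cry1 goes from -4.08 at ZT0 to -2.06 at ZT20, while Per1 and Cry2 are lowest at ZT12.

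Cry2, the paralogue of Cry1, had another course. Its level was 3.64 (ZT0), 1.94 (ZT4), 2.63 (ZT8), 1.40 (ZT12), 3.27 (ZT16) and 3.10 (ZT20). It was lowest at ZT12 and next lowest at ZT4, and the level at ZT0 was 4.72-fold higher than at ZT12. ZT0 and ZT16, and ZT16 and ZT20, did not differ by more than 2 scanner errors. In the authors' values and with every scaling tried, ZT0 remained the highest array and ZT12 the lowest.

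Per1, the period gene that responds fastest to light and hormones, was lowest on the same arrays as Cry2. It stood at 3.03 (ZT0), 2.37 (ZT4), 2.92 (ZT8), 1.84 (ZT12), 3.77 (ZT16) and 2.94 (ZT20). The single high array was ZT16, 3.81-fold above ZT12, whereas ZT0, ZT8 and ZT20 lay within 2 scanner errors of each other in order. Without the ZT16 array its range fell from 1.93 to 1.20 log2 units. Of all genes tested, 8.92% were likewise lowest at ZT12 and next lowest at ZT4.

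The median of the endocrine islet markers was low on those same arrays too. Ins1 (8.29) and Ins2 (8.75) went the other way at ZT4, their highest array, and Iapp (8.13) was second highest there. The part of cell content in the course of Per1 and Cry2 was not tested. Centring each endocrine marker on its own mean, the median was 0.97 (ZT0), -1.65 (ZT4), 0.48 (ZT8), -2.54 (ZT12), 1.32 (ZT16) and 1.20 (ZT20). Centred likewise, Per1 was at -0.44 at ZT4 and -0.98 at ZT12, and Cry2 at -0.73 and -1.26. Lymphocyte markers had a median of 0.05 (ZT0), 2.42 (ZT4), 0.68 (ZT8), 2.17 (ZT12), -3.19 (ZT16) and -2.92 (ZT20), opposite in sign to the endocrine median on all arrays but ZT0 and ZT8. Macrophage markers, 9 of 10 tested, gave 1.45, 1.60, -1.60 and -1.36 at ZT4, ZT12, ZT16 and ZT20. Cry1 at ZT12 was 0.42 above its own mean.

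**Figure D2:**
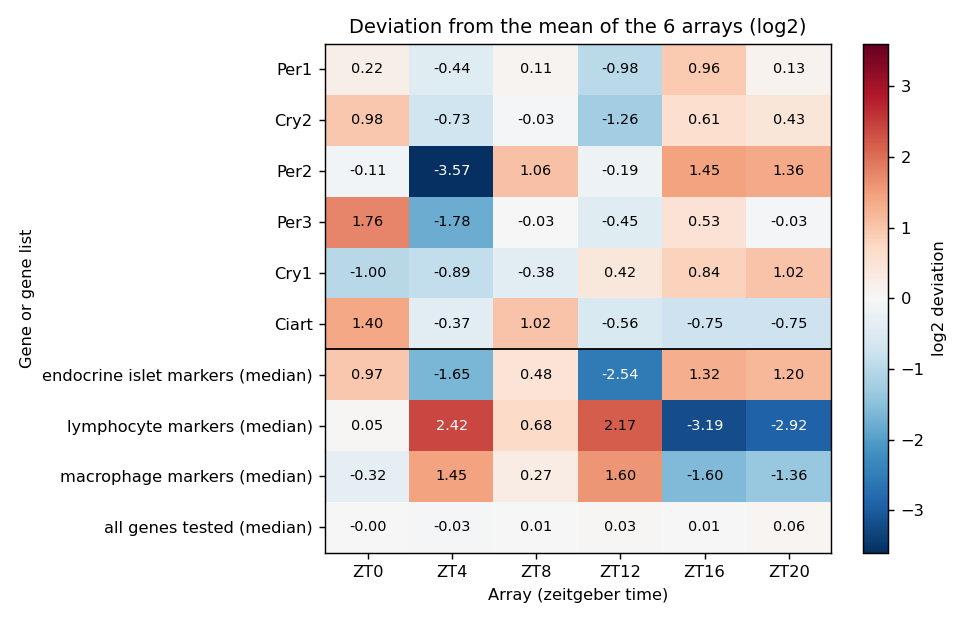
Deviation in log2 units from the mean of the 6 arrays (colour and printed value) for the 6 genes (rows above the line) and for the medians of 3 marker lists and of all genes tested (below it), by array. Per1 and Cry2 are lowest at ZT12 (-0.98 and -1.26), as is the endocrine median (-2.54), while Cry1 is not.

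Per2, which encodes the scaffold of the repressor complex, was high at ZT8, ZT16 and ZT20 and lower at ZT0, ZT4 and ZT12. Its level was -1.56 (ZT0), -5.03 (ZT4), -0.40 (ZT8), -1.65 (ZT12), -0.01 (ZT16) and -0.10 (ZT20). ZT8, ZT16 and ZT20 formed a high group whose neighbours did not differ by more than 2 scanner errors, and ZT0 and ZT12 a lower pair that did not differ either. At ZT4 the spot was not well above background: its median signal was 71 against a local background of 29. Per2 was 31.7-fold higher at ZT16 than at ZT4 when ZT4 was set to the lowest level of a detected probe on that array. That level is no upper limit, since undetected spots can lie above it. Of all genes, 5.03% had a range as wide as the measured 5.02 log2 units of Per2.

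The size of that contrast depended on the background step. With normexp correction the range of Per2 was 2.82 log2 units, a measured 7.04-fold. Without the ZT4 array it was 1.64, between ZT16 and ZT12. Within the shared scan Per2 was 3.12-fold higher at ZT16 than at ZT12. Of the 5 genes measured at ZT12, 3 (Per1, Per2 and Cry2) were at least 2-fold lower there than at both ZT8 and ZT16, a pattern of 15.7% of all genes tested. Cry1 and Ciart did not have it. Per1 was near the limit, 2.12-fold higher at ZT8 than at ZT12. That contrast was 1.89-fold with scaling to the median of probes detected on all arrays and 3.08-fold with quantile normalization.

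Per3 was close to background, and its course was the least certain. Its level was -3.30 (ZT0), -6.83 (ZT4), -5.08 (ZT8), -5.50 (ZT12), -4.53 (ZT16) and -5.08 (ZT20). Only ZT0, ZT8 and ZT16 were well above background. The level at ZT0 was 3.25-fold higher than at ZT4 when ZT4 was set to the lowest level of a detected probe on that array. This is not a lower limit. At ZT4 the scanner error was 99.7% of the signal. With normexp correction ZT4 (-3.08) became the highest array and ZT0 (-3.26) the next, so the direction of Per3 across the day was not settled.

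Ciart, the BMAL1-binding repressor, was high on ZT0 and ZT8, both light-phase arrays, and low in the dark phase. Its level was -1.34 (ZT0), -3.11 (ZT4), -1.72 (ZT8), -3.30 (ZT12), -3.49 (ZT16) and -3.49 (ZT20). ZT0 and ZT8 stood above the other 4 arrays, as in 5.25% of all genes tested. The low arrays ZT4, ZT12, ZT20 and ZT16 did not differ from their neighbours in order by more than 2 scanner errors. Within the shared scan the level of Ciart at ZT8 exceeded that at ZT16 3.42-fold and that at ZT20 3.41-fold, and 13.5% of all genes were at least 2-fold lower at ZT20 than at ZT8.

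The light phase was thus not uniform for Ciart. Its level was 3.41-fold higher at ZT0 than at ZT4, but with normexp correction the same contrast was 1.60-fold. ZT4 was also the array with the lowest share of spots above background. ZT0 was the highest array with every scaling and background step tried, and the lowest was ZT16 or ZT20.

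Set against the whole array, most of these ranges were near the middle. All 6 genes had a measured range of at least 2-fold, as did 90.2% of all genes tested. A measured range of at least 4-fold was reached by 5 of 6 (all but Per1), against 53.3%. Per2 and Per3 were below detection at their lowest array. When such dim lowest spots of the members were set to the lowest detected level, Per2 still reached 4-fold. Cry1, Cry2 and Ciart, which had no dim lowest spot, did so unchanged. Per3 was then 3.25-fold higher at ZT0 than at ZT4. Its lowest array became ZT12, also not well above background, with ZT0 4.61-fold higher. The share of all genes was not computed that way. With normexp correction 5 of 6 (all but Per3) reached 2-fold and 3 of 6 (Per1, Per2 and Cry2) 4-fold. Shares of all genes were not computed for that correction. The median range of all genes was 2.10 log2 units. Ranges as wide as that of Per1 (1.93), Cry1 (2.01), Ciart (2.16) and Cry2 (2.24) were found in 55.8%, 52.8%, 47.9% and 45.4% of genes. In the shared scan the 5 genes measured on all its arrays had ranges of at least 2-fold, against 59.2% of all genes. The range of Per2 was among the widest 5.03%, and its lowest value was below detection.

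The arrays of the extremes were also read against all genes, without Per3, whose direction was not settled. Cry2 and Ciart, 2 of 5, were highest at ZT0, as were 21.5% of all genes, and 0 of 5 were highest at ZT4, against 23.4%. Per1 and Cry2, 2 of 5, were lowest at ZT12, against 21.1%, and Per2, 1 of 5, was lowest at ZT4, where it was below detection, against 22.4%. Between ZT4 and ZT16, 4 of 5 (all but Ciart) were at least 2-fold higher at ZT16, a contrast met by 26.7% of all genes. With normexp correction 3 of 5 met it, Per1, Per2 and Cry2, and the share of all genes was not computed. The median of the endocrine markers was also higher, and that of the lymphocyte markers lower, at ZT16 than at ZT4. Ins1, Ins2 and Iapp among the endocrine markers and Cd4 among the lymphocyte markers went the other way. The part of either list in that count was not tested.

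**Figure D3:**
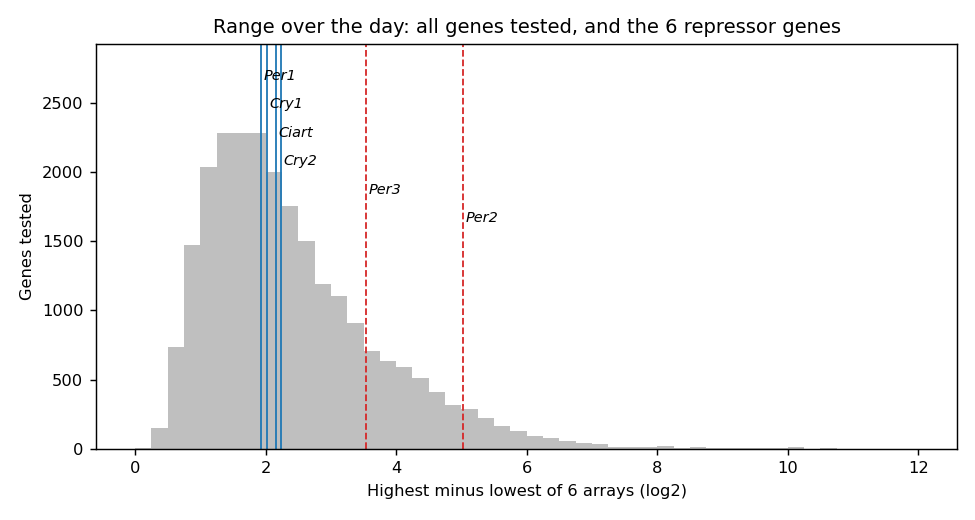
Number of genes tested (y axis) by the highest minus the lowest of the 6 arrays (log2, x axis, in bins of 0.25), with the 6 repressor genes as lines. Solid lines mark genes well above background at their lowest array and dashed lines genes that were not. Per1, Cry1, Ciart and Cry2, at 1.93 to 2.24, lie near the median of 2.10, and Per2 at 5.02.

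A 24 h cosine was fitted to all genes to ask whether the levels followed the time of day. At an adjusted threshold of 0.05, limma called 0 of 24127 genes (0%), the smallest adjusted p being 0.754. Before adjustment 965 genes (4%) were below 0.05, and 0 of the 6 repressor genes were. Cry1 came closest, with a fitted peak minus trough of 2.09 ± 0.74 (SE) log2 units at ZT16.0 and an unadjusted limma p of 0.0678. Per2 gave 3.43 ± 1.47 at ZT16.2, Cry2 1.59 ± 0.87 at ZT21.3 and Ciart 1.50 ± 0.99 at ZT3.72, with unadjusted limma p of 0.133, 0.257 and 0.368. Per1 gave 0.88 ± 0.85 at ZT19.5 and Per3 1.50 ± 1.18 at ZT19.9, with unadjusted limma p of 0.606 and 0.482. The median amplitude of the 6 genes was 1.55, against 1.33 over all genes tested.

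An exact permutation test asked how often another order of the 6 arrays followed a 24 h cosine as well. It gave a one-sided p of 0.133 for Cry1 (R-squared 0.852), 0.35 for Per2 and for Cry2, 0.45 for Ciart, 0.65 for Per1 and 0.7 for Per3. This test cannot give a p below 0.0167 with 6 arrays. With the scaling used above, Cry1 had the smallest p of the 6 in both tests and passed neither. With normexp correction its amplitude was 1.19 ± 0.70 (SE), with an unadjusted limma p of 0.290. Per2 (0.144), Cry2 (0.203) and Ciart (0.216) then had smaller limma p. Its permutation p was then 0.35 (R-squared 0.544), above those of Ciart (0.283) and Per2 (0.317). With a 28 h period in place of 24 h, the unadjusted limma p of Cry1 was 0.0313 and the adjusted p 0.633.

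Single arrays and covariates moved these fits. The amplitude of Per2 was 0.96 ± 1.22 (SE) without ZT4 and 5.40 ± 0.94 without ZT8, where its unadjusted limma p was 0.00430 and the adjusted p 0.240. That of Ciart was 2.99 ± 0.85 without ZT4, with an unadjusted limma p of 0.0452 and an adjusted p of 0.776. That of Cry1 stayed between 1.85 and 2.37 when any array was left out.

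With the mean of the endocrine markers as a covariate, Cry1 gave 2.09 ± 0.73 and Per2 3.27 ± 1.04, close to their values without it. Per1 then gave 0.32 ± 0.72 and Cry2 0.53 ± 0.80, and the difference between these fits was not tested. With the lymphocyte markers as a covariate, the amplitudes of Per1, Per2, Cry1, Cry2 and Ciart were 1.18 ± 1.29, 2.32 ± 1.50, 1.82 ± 1.04, 1.21 ± 0.99 and 2.26 ± 1.70. With scan as a covariate, Cry1 gave 1.47 ± 0.83, Ciart 2.36 ± 1.11 and Per2 1.62 ± 1.48. Only the 4 arrays scanned together inform that fit, with 1 residual degree of freedom. Adjusted limma p values stayed above the threshold for all 6 genes in these fits.

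**Figure D4:**
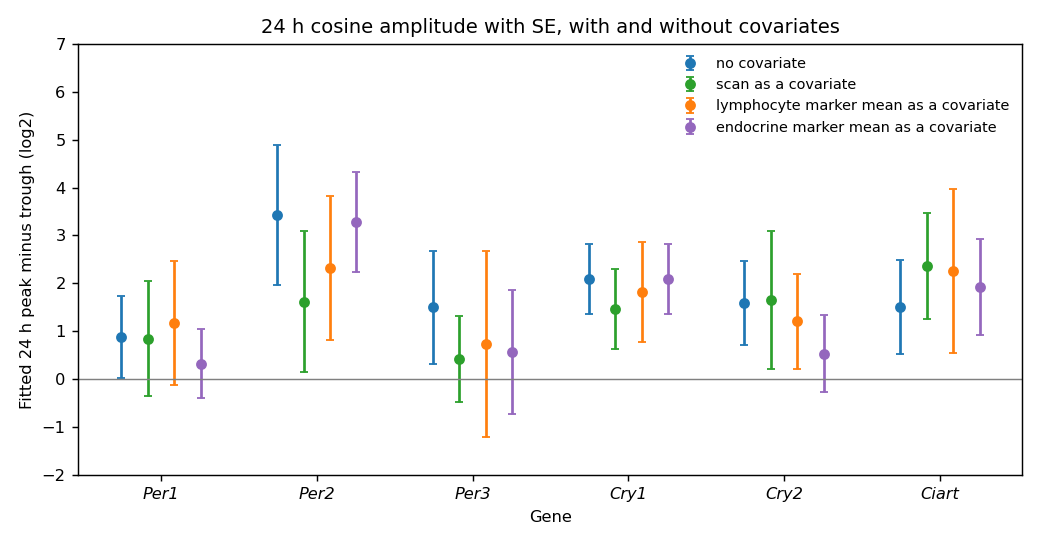
Fitted 24 h peak minus trough (log2, y axis) with its SE for each gene, from fits to the 6 arrays with no covariate, with scan, with the mean of the lymphocyte markers or with the mean of the endocrine markers as a covariate. Cry1 lies between 1.47 and 2.09 in the 4 fits, while Per1 and Cry2 go to 0.32 and 0.53 with the endocrine mean.

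In the difference between a pair of genes on the same array, any single scaling factor of that array cancels. Quantile normalization is no such factor and does move these differences. Cry1 minus Cry2, centred on its mean, was lowest at ZT0 and highest at ZT12, and spanned 3.66 log2 units, or 4.13 with quantile normalization. Cry1 minus Ciart spanned 4.16, from ZT0 to ZT20. Per1 minus Cry2 had the narrowest span of the 15 pairs, 2.15-fold, from ZT0 to ZT16. Per2 minus Ciart had the widest, 5.41, from ZT4, where Per2 was below detection, to ZT16.

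A 24 h cosine was tested on all 15 pairs by exact permutation of the arrays. The one-sided p was 0.05 for Per3 minus Ciart (R-squared 0.926), 0.0833 for Per2 minus Ciart (0.826), 0.167 for Cry2 minus Ciart (0.776), 0.267 for Cry1 minus Ciart and 0.283 for Cry1 minus Cry2. With Benjamini-Hochberg adjustment over the 15 pairs the smallest adjusted p was 0.55, and 0 pairs passed. The pair with Per3 rests on 3 arrays where Per3 was not well above background, and with normexp correction its p was 0.483.

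**Figure D5:**
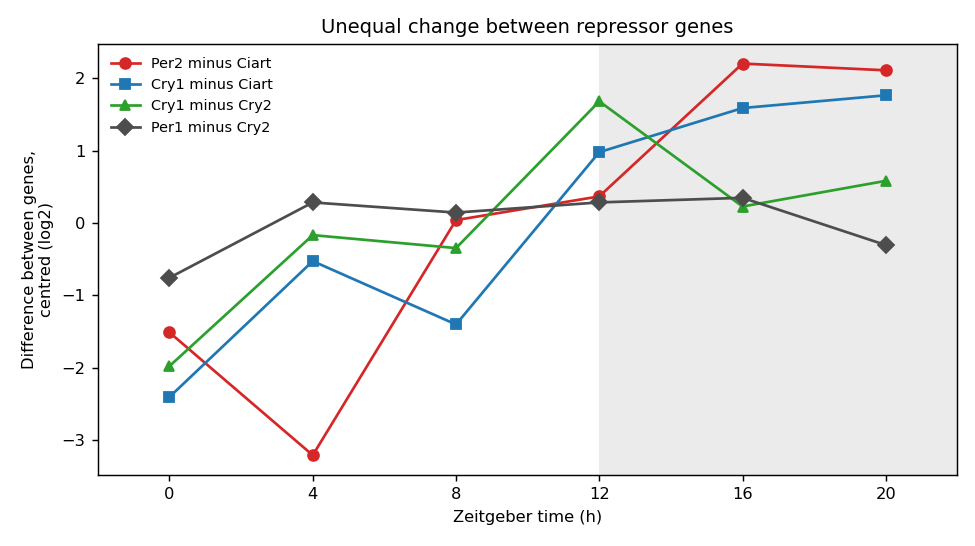
Difference of the log2 levels of a pair of genes on the same array, centred on its mean over the 6 arrays (y axis), against zeitgeber time in hours with the dark phase shaded. Per2 minus Ciart and Cry1 minus Ciart are highest on the ZT16 and ZT20 arrays, and Per1 minus Cry2 spans a 2.15-fold change.

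The other genes of the clock loop were described from a list of 14, of which 11 were tested (without Npas2, Rorb and Bhlhe41). None of the 11 passed the limma test adjusted over all genes. The unadjusted limma p was below 0.05 for 2, Nr1d1 and Dbp, against 4% of all genes tested. The median amplitude of the 11 was 2.09, against 1.33 over all genes. Among the cell type marker lists it ran from 0.91 (duct) to 7.16 (hepatocyte), with 2.54 for endocrine markers. It was 5.43 for lymphocyte markers, of which 8 of 12 had an unadjusted limma p below 0.05. The part of cell content in the fits of the clock genes was not tested. Nr1d1, which encodes REV-ERB alpha, a repressor of Arntl and Cry1, had an amplitude of 4.05 ± 0.93 (SE) at ZT6.27 and was well above background on 4 of 6 arrays. Dbp, a D-box activator, had 2.73 ± 0.85 at ZT6.03. Arntl, the activator that the PER and CRY complex blocks, had 2.23 ± 0.77 at ZT17.3, and Nfil3, which competes with DBP at D-boxes, 2.15 ± 0.89 at ZT19.4. The fitted peak of Cry1 at ZT16.0 thus lay 1.29 h from that of Arntl. That of Ciart at ZT3.72 lay 2.31 h before that of Dbp. It fell next to the ZT4 array, where the measured level of Ciart was low (-3.11, against -1.34 at ZT0 and -1.72 at ZT8). Neither interval was tested.

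A list of genes whose proteins act on PER and CRY had smaller amplitudes. All 18 were tested and 0 passed limma, with or without adjustment, and their median amplitude was 0.95. The smallest unadjusted limma p was 0.158, for Btrc, a ubiquitin ligase subunit that marks PER proteins for degradation, with 2.56 ± 1.16 at ZT20.7. Timeless followed with 1.55 ± 0.82 at ZT9.66. Fbxl21, which encodes an F-box protein that acts on CRY, had 1.70 ± 1.01 at ZT19.1. The casein kinase gene Csnk1d, whose product phosphorylates PER, had 0.10 ± 0.72.

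The genes whose course over the 6 arrays was most like that of a member were found by Pearson's r among 13842 named genes well above background on all arrays. For Cry1 they were Fasn, fatty acid synthase (0.995), Iars, an isoleucine tRNA synthetase (0.991), and Lysmd3 (0.986). For Ciart they were Hes1, a Notch target repressor (0.997), Itgbl1 (0.989) and Pip5k1a (0.985). For Cry2 they were Greb1l (0.999), Tceal9 (0.998) and Gch1, the first enzyme of tetrahydrobiopterin synthesis (0.998), and for Per1 Chrm4, a muscarinic receptor (0.995), Col4a4 (0.989) and Amer2 (0.983). These are the highest of many values over 6 points that share array and pool. An r of at least 0.95 was reached by 287 genes with Cry2 (2.07%), 75 with Per1 (0.542%), 36 with Cry1 (0.26%) and 13 with Ciart (0.0939%).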

How the data were processed

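The deposited scanner files were made by the authors with Agilent Feature Extraction 11.0.1.1, per the file headers and the submitters' processing notes. Their processed signal, median spot signal and local background are linear intensity values, background-subtracted and detrended in the first case and not normalized between arrays, per the file headers. Flags of 0 or 1 mark spots well above background, saturated or outlying. The authors' deposited value table holds log2 values of 30170 probes with column medians of 8.62 to 8.63. For the members, differences between arrays in it were within 0.01 of quantile-normalized log2 processed signals, except for Per3 at ZT4 (3.15 against 4.12), and no gene centring was seen; its steps are not given in the sources used here.

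Control spots were left out and spots of a probe averaged on the log2 scale (39429 probes, 69.1% named through RefSeq of GRCm38.p6, used for names only). Values were scaled to the 75th percentile of each array. Probes well above background on at least 3 arrays and not outlying on any array were kept (28795), and the brightest probe of a gene was used. The 24 h cosine was fitted with limma 3.58.1 in R 4.3.3, with Benjamini-Hochberg adjustment over all genes and a threshold of 0.05. The cosine fit and the exact permutation test were tested on simulated data. The alternatives covered scaling, background correction (normexp, offset 50), filters, arrays, scan, period and marker means. Setting dim spots to the detection floor was chosen after seeing the data. Named from the other lists were genes with an unadjusted p under 0.05, filled to 4 by smallest p, and for each member detected on all arrays the 3 genes of highest r; Csnk1d was named after its values were seen, and some named genes are not reported here. The members and lists were chosen with earlier results of these data known. No array coordinates were used, since the array design names build mm9.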

Additional observations from a re-analysis of the deposited data

How the results depend on the processing

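Results were recomputed under the alternatives that could be applied to them, 359 values in all. For the exact permutation tests these were only other scalings, background correction, outlier spots and probe averaging. For ranges, the scan, period, variance and marker settings were left out. Of these values, 343 stayed on the same side of the threshold or close to the reported value, and 16 moved. Changes of direction were not counted. Since no member passed under any of the alternatives, the count of 343 says little about stability. The 965 genes below an unadjusted limma p of 0.05 ran from 348 to 4026 when 1 array was left out (4026 without ZT8, 2452 without ZT12, 417 without ZT16, 348 without ZT20), and became 439 with scan as a covariate, 246 with a 20 h period and 1591 with a 28 h period; the causes were not tested. Ranges moved as follows. With normexp correction they were 2.82 log2 units for Per2, 0.95 for Per3 and 1.52 for Ciart. That of Per3 was 2.77 with quantile normalization and 2.20 with dim spots at the detection floor. Leaving out 1 array gave 1.20 to 1.93 for Per1, 1.64 to 5.02 for Per2 and 2.20 to 3.53 for Per3. The fitted peak moved over 6 h for Per1 with either marker mean as a covariate and for Per2 with scan as a covariate, among settings of a 24 h period. Signal over background limits Per3 everywhere and Per2 at ZT4. No paired analysis was possible because each group is 1 array.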

Other observations

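Among the clock partner genes, 5 of the 11 tested had their lowest level at ZT4, as did Per2, while 22.4% of all genes tested were lowest there. These were Arntl (-1.22 at ZT4), Clock (-2.81), Nr1d2 (-1.0), Rora (-4.53) and Hlf (-3.48), named after their values were seen. The fitted amplitude of Clock, the partner of BMAL1, was 2.78 ± 1.27 (SE) at ZT19.1. None of them passed the limma test, and the ZT4 array was also the one with the fewest spots well above background.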
